A study of Sus scrofa with 8 samples.

Results

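The genes that copy DNA were followed in the liver of pigs with dietary nonalcoholic steatohepatitis (NASH). The 40 genes were chosen by name for their roles in DNA replication and entry into S phase, but with earlier results of these data known. Their counts beside those of all genes are therefore a description and not a test. All 40 were found among the 20430 rows of the expression table. The study used 24 male pigs of the cross Large White x Landrace, of an age that the sources leave out. All were fed for a month a steatotic diet with much cholate, cholesterol, fructose and saturated fat and little methionine and choline, were biopsied, and were split into groups matched for hepatic triglyceride and cholesterol. For another month 12 of them stayed on that diet (control) and 12 had 0.5% squalene, the hydrocarbon from which cells make sterols, added to it, and livers were taken after an overnight fast. Equal amounts of liver RNA of 3 pigs made up each pool, so that 4 control pools stood against 4 squalene pools. A pool averages its 3 pigs, both diets are steatotic, and no lean liver was analysed here, so the values compare NASH with NASH plus squalene.

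To copy its genome once, a cell loads the ring-shaped MCM helicase on origins in G1 phase, turns it on at the start of S phase, and follows it with polymerases, a sliding clamp and a supply of deoxynucleotides. The genes for these steps are largely driven by the E2F transcription factors, and most are low in resting cells. Adult hepatocytes rarely divide, but a damaged liver can return them to the cell cycle, and dividing lymphocytes, macrophages, endothelial, stellate and duct cells add to the same transcripts in a bulk sample. Fewer dividing cells and less RNA per dividing cell cannot be told apart in such a sample.

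Levels were compared as FPKM, fragments per kilobase of gene scaled to the size of the library, which allows comparison between genes. The 40 genes averaged from 0.23 FPKM for *CDC6* to 33.2 for *RPA3*, with a median of 3.31. The estimated counts, added by the authors over the pools of each diet, came, in units of 1e6, to 76.7 for control and 75.9 for squalene. The depth of single pools is unknown. Behind the replication genes lay 63 (*CDC6*) to 2651 (*RRM1*) added counts in control and 104 to 2995 in squalene, and the genes at the low end are the least precise. *ALB*, the albumin gene of hepatocytes, had 24083 FPKM or more in every pool. Squalene pool 1 stood apart, with interferon-stimulated genes summing to 6924.5 FPKM, where the control pools spanned 1167.4 to 2274.5 and the remaining squalene pools 1324.1 to 1659.1, and each main count is also given without it.

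Of the 40 genes, 39 had a higher fitted level on squalene than on the control diet, with a median log2 difference of 0.29 on the log2(FPKM + 0.1) scale and a range from −0.04 (*CCNE1*) to 0.71 (*RRM2*). Over all 14780 genes tested, 47.1% had a fitted difference above 0 and the median was −0.01. In 8 of the 40 genes every squalene pool lay above every control pool, where 1.13% of all genes did so, and in 0 did every squalene pool lie below, against 1.54% of all genes. An unadjusted p under 0.05 with a higher level on squalene was found for 11 of the 40 genes, against 2.08% of all genes, and with a lower level for 0, against 2.28%. None of the 40 passed the test after adjustment over all genes (limma, adjusted p = 0.953 for *TK1* and *RRM2* and 1.0 for the other 38), nor did any other gene (0 of 14780, or 0.0%, with 645 at an unadjusted p under 0.05). The 95% interval of the difference comes from the same fit as the p, and so by construction lay above 0 in the same 11 genes.

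Without squalene pool 1, 38 of the 40 genes had a fitted difference above 0 (43.4% of all genes), and the median was 0.25 (−0.03 over all genes). The unadjusted p was under 0.05 for 7 genes higher on squalene (2.02% of all genes) and for 0 lower (2.74%). In 8 genes every squalene pool lay above every control pool (1.97% of all genes), and in 0 below (3.38%). The 7 were *TK1*, *RRM2*, *MCM4*, *POLE*, *E2F1*, *CDT1* and *PRIM1*, while the 95% intervals of *GINS2* (−0.03 to 0.80), *MCM6* (−0.0061 to 0.53), *TYMS* (−0.0049 to 0.57) and *FEN1* (−0.04 to 0.69) then included 0. The 8 were those found with the pool included, which leaving out a pool cannot make overlap. The count at an unadjusted p under 0.05 was 6 without control pool 4, 18 without control pool 3 and 17 without squalene pool 4, all higher on squalene, where 1.31%, 1.85% and 2.78% of all genes were. The count of genes with every squalene pool above every control pool was 13 without control pool 3 and 15 without squalene pool 4, where it was 1.77% and 2.63% of all genes.

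**Figure D1:**
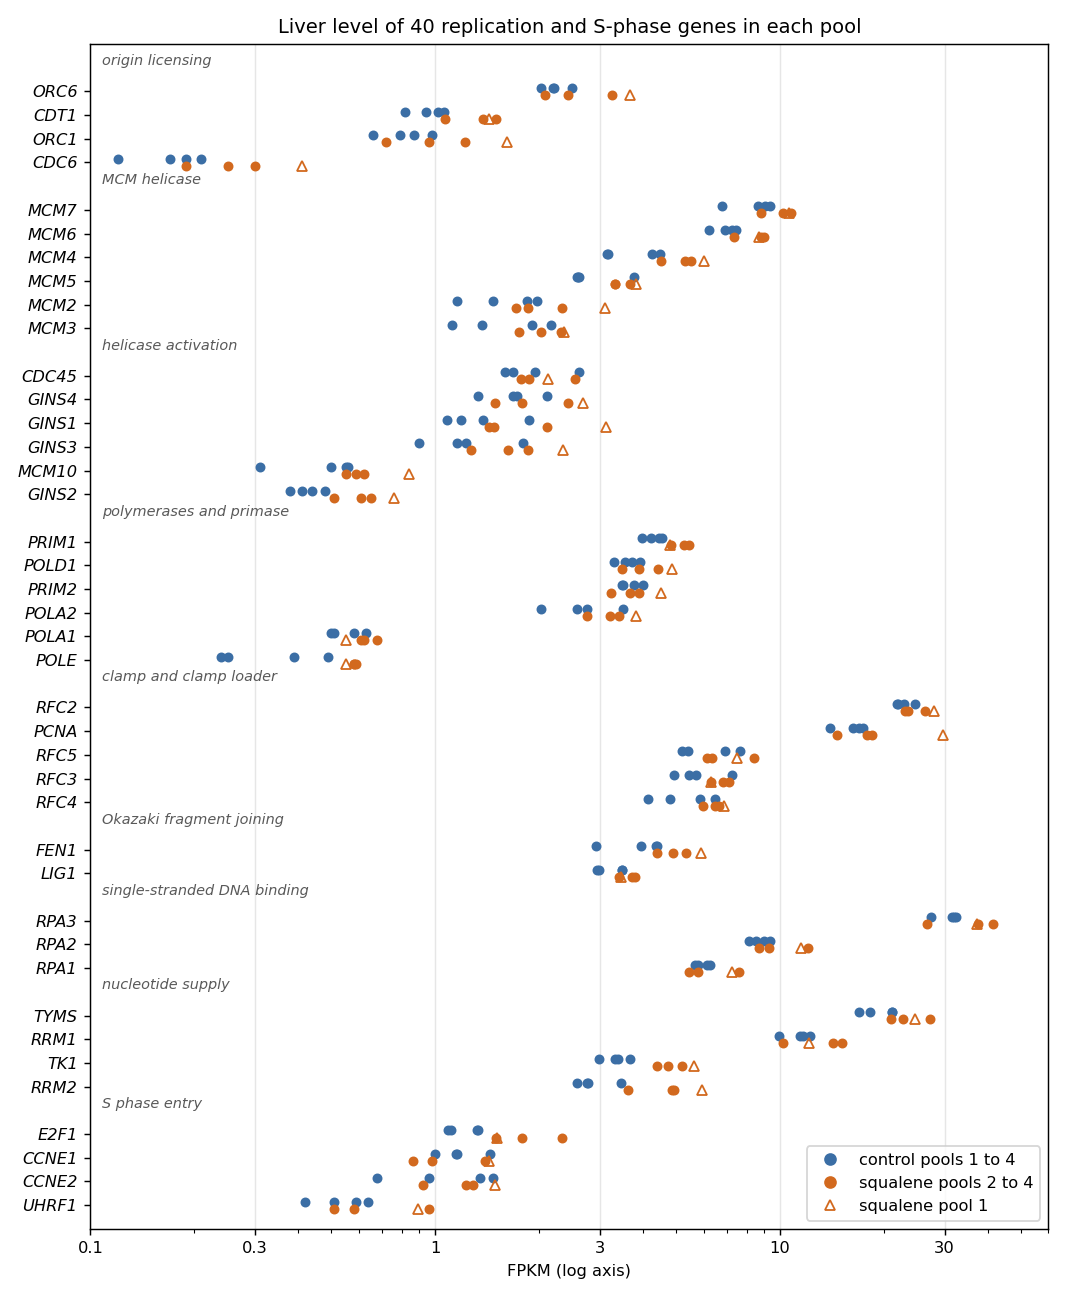
FPKM of each of the 40 genes in each pool on a log axis, grouped by role, with control pools in blue, squalene pools 2 to 4 in filled orange and squalene pool 1 as an open triangle. Genes span 0.23 to 33.2 FPKM on average, and in 8 genes, among them *TK1*, *RRM2*, *MCM4* and *E2F1*, all orange marks lie to the right of all blue ones.

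Among the enzymes of deoxynucleotide supply were the 2 genes with the smallest p of the 40. *TK1*, the thymidine kinase of S phase, on chromosome 12 (3785997 to 3794824, Sscrofa11.1), had 2.98, 3.67, 3.32 and 3.4 FPKM in control pools 1 to 4 and 5.61, 5.2, 4.4 and 4.74 in squalene pools 1 to 4. Its lowest squalene pool was above its highest control pool. The mean was 49.2% higher on squalene, a log2 difference of 0.56 (95% interval 0.30 to 0.82) and an adjusted p = 0.953 (limma), and the difference was 0.50 without squalene pool 1. *RRM2*, the S phase subunit of ribonucleotide reductase, on chromosome 3 (126357198 to 126367145, Sscrofa11.1), had 2.57, 3.46, 2.76 and 2.78 FPKM in control pools 1 to 4 and 5.95, 4.87, 3.62 and 4.91 in squalene pools 1 to 4. Here too the diets did not overlap, with squalene pool 3 and control pool 2 the closest. The log2 difference was 0.71 (95% interval 0.35 to 1.07), the largest of the 40 genes with all pools on this scale. Without squalene pool 1 the difference of *RRM2* was 0.61, and that of *POLE* was larger, at 0.67.

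*TYMS*, thymidylate synthase, which makes the thymine nucleotide from the uracil one, had 21.12, 16.92, 21.13 and 18.23 FPKM without squalene and 24.67, 27.15, 22.67 and 20.98 with it. Squalene pool 4 lay just under the highest control pools, and the log2 difference was 0.30 (95% interval 0.04 to 0.56). *RRM1*, the subunit of ribonucleotide reductase that is kept through the cell cycle, differed by 0.18 (95% interval −0.12 to 0.48), with values from 9.96 to 12.19 FPKM without squalene and from 10.22 to 15.11 with it. The intervals of *RRM2* and *RRM1* overlapped, and the difference between these subunits was not tested.

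All 6 subunits of the MCM helicase, which unwinds DNA ahead of the fork, had a higher fitted level on squalene, by 0.26 to 0.50, with a median of 0.34 (0.28 without squalene pool 1). *MCM4*, on chromosome 4 (79674737 to 79686964, Sscrofa11.1), had 3.15, 4.48, 4.26 and 3.17 FPKM in control pools 1 to 4 and 6.03, 5.29, 4.53 and 5.51 in squalene pools 1 to 4. No pools of the diets overlapped, although control pool 2 and squalene pool 3 were close, and the log2 difference was 0.50 (95% interval 0.17 to 0.84). *MCM6* had 6.93, 7.27, 7.45 and 6.21 FPKM without squalene and 8.71, 8.82, 8.99 and 7.37 with it. Of the squalene pools only pool 4 fell within the control range, and the difference was 0.28 (95% interval 0.04 to 0.52). *MCM7*, the most abundant subunit, had 8.61, 9.03, 9.34 and 6.77 FPKM without squalene and 10.63, 10.2, 10.77 and 8.78 with it. *MCM3*, among the lower ones, had 1.37, 2.17, 1.91 and 1.12 FPKM without squalene and 2.37, 2.31, 1.75 and 2.03 with it. The diets overlapped in both, and the differences were 0.26 (95% interval −0.02 to 0.54) for *MCM7* and 0.38 (95% interval −0.08 to 0.84) for *MCM3*.

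*MCM2* and *MCM5*, the remaining subunits, differed by 0.45 (95% interval −0.04 to 0.93) and 0.30 (95% interval −0.02 to 0.62). *MCM2* ranged from 1.16 to 1.97 FPKM without squalene and from 1.71 to 3.11 with it, and it was highest in squalene pool 1, without which its difference was 0.29. Summed over the 6 subunits, the control pools held 21.0 to 28.7 FPKM and the squalene pools 28.7 to 34.7, the lowest squalene and highest control sums being nearly equal.

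The genes of origin licensing load the helicase. *CDT1*, the loading factor that binds MCM, on chromosome 6 (893377 to 897706, Sscrofa11.1), had 0.94, 1.02, 1.06 and 0.82 FPKM in control pools 1 to 4 and 1.43, 1.5, 1.38 and 1.07 in squalene pools 1 to 4. The diets did not overlap, though control pool 3 and squalene pool 4 were almost equal, and the log2 difference was 0.44 (95% interval 0.10 to 0.78). *ORC6*, a subunit of the origin recognition complex and the most abundant of this group, had 2.21, 2.03, 2.2 and 2.49 FPKM without squalene and 3.68, 2.42, 2.08 and 3.26 with it. *CDC6*, the ATPase that loads MCM with that complex, had 0.19, 0.17, 0.12 and 0.21 FPKM without squalene and 0.41, 0.25, 0.19 and 0.3 with it. In *ORC6* 2 and in *CDC6* 3 of the squalene pools were above all control pools. Their differences were 0.31 (95% interval −0.09 to 0.71) and 0.49 (95% interval −0.04 to 1.02), and that of *ORC1*, the largest subunit of the complex, was 0.37 (95% interval −0.15 to 0.88). All 3 were highest in squalene pool 1, and without it their differences were 0.18, 0.35 and 0.19.

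Of the factors that turn the loaded helicase on, *CDC45* and the GINS complex join it and *MCM10* helps start it. *GINS2*, on chromosome 6 (3218655 to 3252740, Sscrofa11.1), had 0.41, 0.48, 0.44 and 0.38 FPKM in control pools 1 to 4 and 0.76, 0.61, 0.51 and 0.65 in squalene pools 1 to 4. The diets did not overlap (log2 difference 0.47 (95% interval 0.08 to 0.85)). However, 64.0% of the exonic bases of *GINS2* are also exonic in *GSE1* on the opposite strand, and no strand setting of the counting is stated, so that reads of these genes may be mixed. *GINS1*, *GINS3*, *GINS4* and *MCM10* differed by 0.49, 0.46, 0.26 and 0.38, each with an interval that included 0. Each of these 4 genes was highest in squalene pool 1, and without it their differences were 0.27, 0.32, 0.13 and 0.27. *CDC45*, the most abundant of the group, had 1.68, 1.59, 2.61 and 1.95 FPKM without squalene and 2.13, 2.55, 1.77 and 1.87 with it. It was highest in control pool 3, and its difference was 0.10 (95% interval −0.31 to 0.50).

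Among the polymerases, *POLE*, the catalytic subunit of the leading strand enzyme, on chromosome 14 (22798146 to 22852818, Sscrofa11.1), had 0.24, 0.49, 0.39 and 0.25 FPKM in control pools 1 to 4 and 0.55, 0.58, 0.59 and 0.58 in squalene pools 1 to 4. The squalene pools were nearly identical and all above the control pools, which varied by 0.12 FPKM (SD, n = 4), and the log2 difference was 0.65 (95% interval 0.17 to 1.12). *PRIM1*, the catalytic subunit of primase, which lays the RNA primers, on chromosome 5 (22064248 to 22089441, Sscrofa11.1), had 4.47, 4.21, 4.55 and 3.97 FPKM in control pools 1 to 4 and 4.81, 5.43, 5.27 and 4.84 in squalene pools 1 to 4. The diets again did not overlap, and the log2 difference was 0.24 (95% interval 0.01 to 0.46). Without squalene pool 1 the differences of *POLE* and *PRIM1* were 0.67 and 0.26. *PRIM2*, the other primase subunit, differed by 0.05 (95% interval −0.23 to 0.32). *POLA1* and *POLA2*, which with primase form the enzyme that starts each strand, differed by 0.13 (95% interval −0.22 to 0.48) and 0.29 (95% interval −0.09 to 0.67), and *POLD1*, the catalytic subunit of the lagging strand enzyme, by 0.19 (95% interval −0.09 to 0.48).

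The sliding clamp, its loader and the proteins that bind single-stranded DNA included the most abundant of the 40 genes, and in none of these 8 genes did the diets separate. *PCNA*, the clamp, had 17.45, 13.97, 16.92 and 16.29 FPKM without squalene and 29.69, 17.92, 18.47 and 14.62 with it. Squalene pool 1 stood far above the rest, and the difference was 0.27 (95% interval −0.15 to 0.70) with it and 0.07 without it. *RFC2*, a subunit of the clamp loader, had 24.65, 22.86, 22.04 and 21.78 FPKM without squalene and 27.96, 26.38, 22.99 and 23.43 with it. Its diets overlapped, with a difference of 0.14 (95% interval −0.08 to 0.35). *RFC4*, the lowest of the group, had 4.14, 5.84, 6.48 and 4.78 FPKM without squalene and 6.89, 6.49, 6.65 and 5.97 with it. It differed by 0.31 (95% interval −0.01 to 0.63), and *RFC3* and *RFC5* differed by 0.19 (95% interval −0.10 to 0.48) and 0.18 (95% interval −0.17 to 0.53).

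Of the 3 subunits of replication protein A, which also serve DNA repair, *RPA3* had 31.96, 32.33, 27.4 and 31.52 FPKM without squalene and 37.29, 41.47, 37.41 and 26.61 with it. The squalene pools held both the highest and the lowest value of this gene (log2 difference 0.20 (95% interval −0.11 to 0.50)). *RPA1* had 5.68, 6.25, 6.12 and 5.79 FPKM without squalene and 7.26, 5.77, 7.59 and 5.43 with it. Its diets overlapped as well, with a difference of 0.11 (95% interval −0.17 to 0.40), and that of *RPA2* was 0.23 (95% interval −0.04 to 0.51). *FEN1*, the nuclease that trims Okazaki fragments, had 3.96, 4.41, 4.38 and 2.92 FPKM without squalene and 5.88, 5.33, 4.88 and 4.4 with it. Squalene pool 4 lay within the control range, and the difference was 0.39 (95% interval 0.05 to 0.73). *LIG1*, the ligase that joins the trimmed fragments, had 3.49, 3.48, 2.99 and 2.94 FPKM without squalene and 3.45, 3.42, 3.73 and 3.8 with it. The diets overlapped, and the difference was 0.16 (95% interval −0.09 to 0.40).

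Among the genes of S phase entry, *E2F1*, the transcription factor that turns on many of the other genes, on chromosome 17 (37178587 to 37190118, Sscrofa11.1), had 1.11, 1.33, 1.32 and 1.09 FPKM in control pools 1 to 4 and 1.51, 2.33, 1.78 and 1.5 in squalene pools 1 to 4. Every squalene pool was above every control pool, with squalene pool 2 the highest, and the log2 difference was 0.50 (95% interval 0.13 to 0.87) and 0.57 without squalene pool 1. *CCNE1* and *CCNE2*, the cyclins E that drive *CDK2* into S phase, differed by −0.04 (95% interval −0.47 to 0.38) and 0.17 (95% interval −0.36 to 0.70), and *CCNE1* was the 1 gene of the 40 with a lower fitted level on squalene. *CCNE1* ranged from 1.0 to 1.44 FPKM without squalene and from 0.86 to 1.43 with it, nearly the same range. *UHRF1*, which carries DNA methylation over to the new strand and was the lowest of this group, had 0.59, 0.64, 0.42 and 0.51 FPKM without squalene and 0.89, 0.96, 0.51 and 0.58 with it. The squalene pools held its highest values and overlapped with control (difference 0.36 (95% interval −0.14 to 0.85)).

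**Figure D2:**
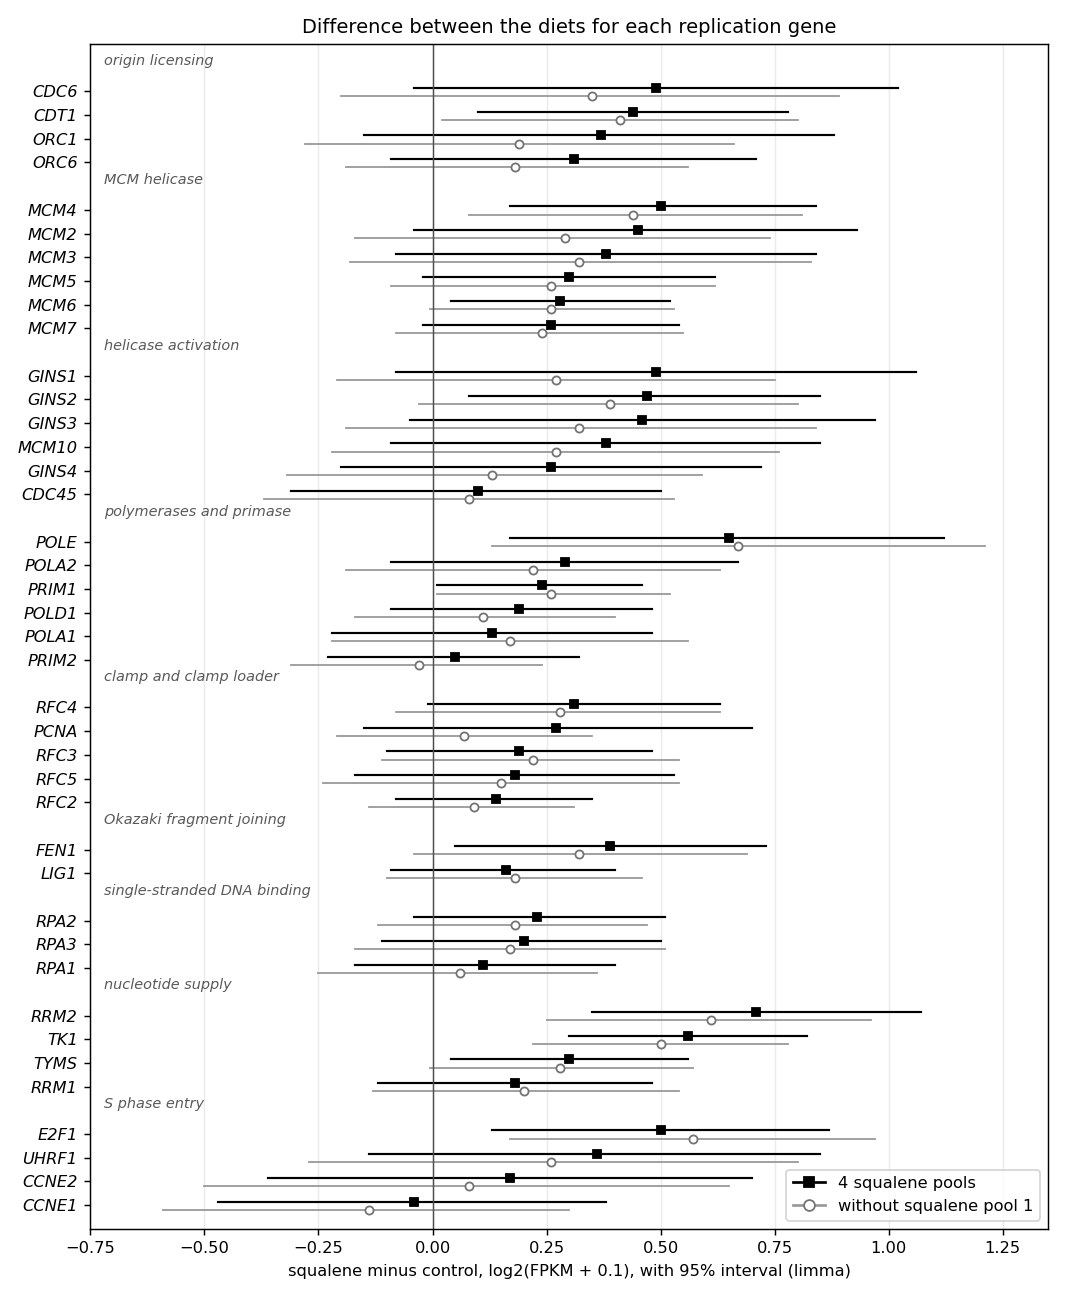
Difference between squalene and control on the log2(FPKM + 0.1) scale for each gene, with its 95% interval from limma, for all pools (black squares) and without squalene pool 1 (open circles). All black squares except that of *CCNE1* (−0.04) lie right of 0, and 11 black intervals do not reach 0.

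The genes were also divided by level, with no test between the parts. The 16 genes that averaged under 2 FPKM had a median log2 difference of 0.41 (0.28 without squalene pool 1), and the 24 genes at 2 FPKM or more had one of 0.25 (0.21 without it). By role, the medians ran from 0.19 for clamp and clamp loader to 0.43 for nucleotide supply, with 0.42 for helicase activation and 0.41 for origin licensing. Differences of genes of low level depend on the 0.1 FPKM added before the log, which limits both comparisons. With 1 or 0.01 added instead, the difference of *CDC6*, the lowest gene, was 0.13 or 0.68, and that of the more abundant *MCM6* was 0.25 or 0.28.

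The pools of a diet also differed among themselves. Relative to each gene's mean over the 8 pools, the median of the 40 genes was −0.13, −0.08, −0.09 and −0.24 in control pools 1 to 4 and 0.30, 0.21, 0.03 and 0.04 in squalene pools 1 to 4 on the log2 scale. The medians of the diets did not overlap, and squalene pools 3 and 4 were nearer to the control pools than squalene pools 1 and 2. Over all genes tested the same medians were 0.08, 0.07, −0.07 and −0.06 without squalene and 0.04, 0.01, −0.01 and −0.06 with it. Squalene pool 1 held the highest value of 22 of the 40 genes, where it held that of 21.4% of all genes, and control pool 4 held the lowest value of 19, where it held that of 14.9% of all genes. A squalene pool was highest in 37 genes and a control pool in 3, *CDC45*, *RFC3* and *CCNE1*.

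**Figure D3:**
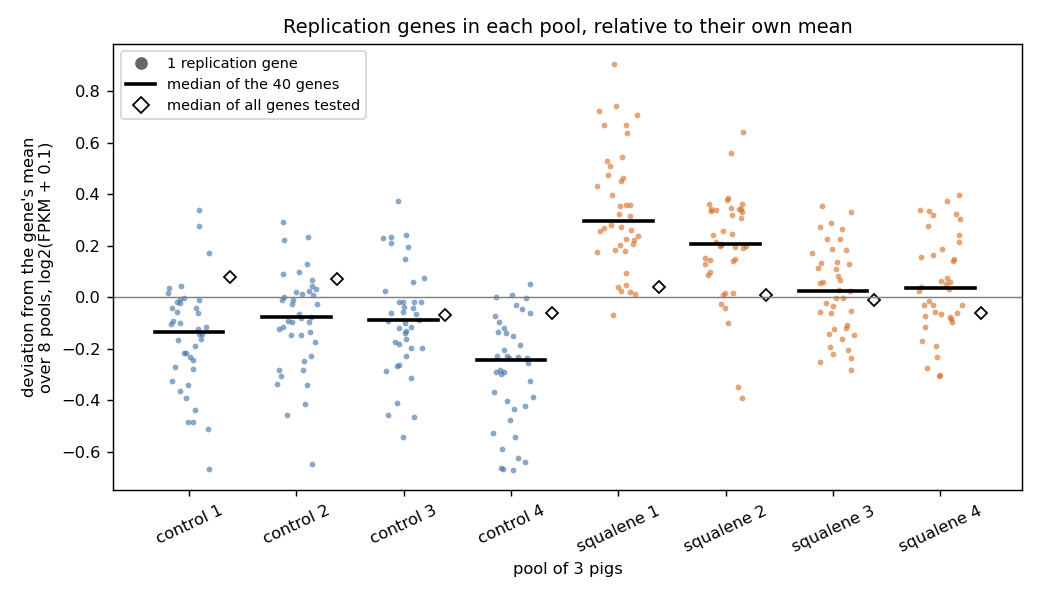
Each of the 40 genes as a dot in each pool, as its deviation from its own mean over the 8 pools on the log2(FPKM + 0.1) scale, with the median of the 40 genes as a bar and the median of all genes tested as a diamond. The bars lie at −0.24 to −0.08 in the control pools and at 0.03 to 0.30 in the squalene pools.

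The promoters of these genes were read from the RefSeq annotation of Sscrofa11.1 as the 250 bases before and 50 after the annotated start, for the 39 genes placed on a chromosome (*MCM5* lies on an unplaced scaffold). An E2F motif, searched as the letters TTTCCCGC, TTTGGCGC and TTTCGCGC on both strands, was found in 8 of the 39 windows, or 20.5%. It was found in 2.80% of the windows of all 19551 protein-coding genes and in 3.48% of the 13425 whose levels were tested. Searched in the same way, the letters CCAAT of the site of the factor NF-Y were found in 59.0%, 35.4% and 35.8%. The 8 genes were *CDT1*, *MCM3*, *MCM6*, *ORC1*, *POLA1*, *POLE*, *RPA2* and *TYMS*, of which 4 were among the 11 genes at an unadjusted p under 0.05.

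The windows of *CDT1*, *POLE* and *MCM6* are shown because these genes belong to the 11 and hold more than 1 match each. They are read 5′ to 3′ on the strand of the gene from RefSeq (Sscrofa11.1), with the E2F matches in capitals.
CDT1, chr6:897657-897956, minus strand: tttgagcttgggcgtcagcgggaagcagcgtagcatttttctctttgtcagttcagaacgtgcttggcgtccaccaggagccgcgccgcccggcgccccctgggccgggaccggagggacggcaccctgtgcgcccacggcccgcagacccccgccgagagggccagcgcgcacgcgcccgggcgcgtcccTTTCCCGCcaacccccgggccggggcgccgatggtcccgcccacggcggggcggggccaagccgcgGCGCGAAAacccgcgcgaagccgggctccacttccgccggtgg
POLE, chr14:22797896-22798195, plus strand: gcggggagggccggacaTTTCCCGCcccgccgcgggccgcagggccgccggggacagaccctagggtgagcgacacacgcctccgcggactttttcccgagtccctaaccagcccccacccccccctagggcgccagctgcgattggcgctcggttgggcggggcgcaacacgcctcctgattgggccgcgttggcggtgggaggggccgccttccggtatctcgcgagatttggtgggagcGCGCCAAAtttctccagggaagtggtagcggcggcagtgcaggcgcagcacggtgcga
MCM6, chr15:15923388-15923687, plus strand: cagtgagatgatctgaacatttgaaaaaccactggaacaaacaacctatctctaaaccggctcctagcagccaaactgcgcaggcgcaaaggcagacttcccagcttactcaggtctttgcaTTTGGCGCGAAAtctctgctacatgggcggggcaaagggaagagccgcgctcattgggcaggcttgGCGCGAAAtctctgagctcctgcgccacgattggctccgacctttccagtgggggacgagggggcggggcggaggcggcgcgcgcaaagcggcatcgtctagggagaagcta
In *CDT1* the matches begin 59 bases before and at base 8 after the start, and in *POLE* 233 and 8 bases before it. In *MCM6* a TTTGGCGC at 128 bases before the start overlaps a TTTCGCGC of the opposite strand at 124, and a further TTTCGCGC lies on the opposite strand at 62. These are matches of letters, and binding was not measured. The windows of *TK1*, *RRM2*, *MCM4*, *E2F1*, *GINS2* and *PRIM1*, whose diets did not overlap, held none of these letters. Variant letters and sites outside the windows were not searched. A window without a match therefore does not show that a gene lacks an E2F site.

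Other genes of the replication machinery were set beside the 40. Of 34 such genes tested, 26 had a fitted difference above 0 with a median of 0.12 (24 and 0.08 without squalene pool 1), 4 had an unadjusted p under 0.05, all higher on squalene (2.08% of all genes), and 0 passed the adjusted test (limma). *DUT*, which removes dUTP before it enters DNA, ranged from 16.87 to 18.69 FPKM without squalene and from 20.66 to 27.75 with it and differed by 0.47 ± 0.11 (SE). *ASF1B*, a histone chaperone of S phase, ranged from 0.75 to 0.99 FPKM without squalene and from 1.15 to 1.47 with it and differed by 0.48 ± 0.15 (SE). *EXO1*, a nuclease of replication and repair, ranged from 0.1 to 0.16 FPKM without squalene and from 0.22 to 0.32 with it and differed by 0.65 ± 0.21 (SE). In these 3 genes, named for their small p, the diets did not overlap, nor did they in *NASP*, a histone chaperone that differed by 0.17. In all, every squalene pool lay above every control pool in 4 of the 34 genes (1.13% of all genes) and below in 0 (1.54%).

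Of 24 E2F factors, cyclins, kinases and inhibitors that regulate S phase entry, 15 had a difference above 0, with a median of 0.11 (0.02 without squalene pool 1), and 0 passed the adjusted test (limma). At an unadjusted p under 0.05, 1 was higher on squalene (2.08% of all genes) and 2 were lower (2.28%). Without squalene pool 1, 0 were higher (2.02% of all genes) and 2 lower (2.74%) at that p. *E2F5*, one of the E2F factors that hold genes off in resting cells, ranged from 1.21 to 2.63 FPKM without squalene and from 0.81 to 1.36 with it and differed by −0.71 ± 0.24 (SE). *CDKN1B*, the inhibitor p27 of cyclin-dependent kinases, differed by −0.26 ± 0.11 (SE), and *CCNA2*, the cyclin A of S and G2 phase, by 0.43 ± 0.18 (SE). The diets overlapped in all 3.

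The mitosis genes, which act after S phase, were set beside the 40. Of 28 tested, 28 had a difference above 0 with a median of 0.40, 12 had an unadjusted p under 0.05, all higher (2.08% of all genes), and in 5 every squalene pool lay above every control pool (1.13% of all genes). Without squalene pool 1 the median was 0.32 with 27 above 0, and these counts were 5 (2.02% of all genes) and 5 (1.97%). The kinase gene *CDK1* ranged from 1.94 to 2.7 FPKM without squalene and from 3.77 to 5.45 with it and differed by 0.97 ± 0.16 (SE), with an adjusted p = 0.443 (limma). *UBE2C*, a ubiquitin-conjugating enzyme of mitotic exit, differed by 0.75 ± 0.19 (SE) and *BIRC5*, survivin, by 0.42 ± 0.10 (SE).

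Markers of the cell types that could carry dividing cells were measured in the same pools, and none passed the adjusted test (limma). Of 16 rows of T and NK cell markers, with *GZMA* on 2 of them, 14 had a fitted difference below 0 (median −0.08). The summed level of these rows was 74.5 to 91.4 FPKM without squalene and 58.0 to 92.9 with it, highest in squalene pool 1. Of 10 macrophage markers 8 were below 0 (median −0.07, sums 605 to 703 and 609 to 675 FPKM), as were 6 of 8 endothelial markers (−0.13, 166 to 185 and 141 to 177), 4 of 7 B and plasma cell markers (−0.10, 21.2 to 30.2 and 21.2 to 30.8) and 4 of 5 neutrophil markers (−0.19, 13.4 to 24.9 and 9.7 to 30). In contrast, 5 of 7 stellate cell markers (median 0.21, sums 128 to 181 and 136 to 222 FPKM) and 5 of 6 cholangiocyte markers (0.33, 204 to 264 and 160 to 257) had a difference above 0. Of the 11 hepatocyte rows 4 were above 0 (median −0.02, sums 48068.5 to 75795.1 and 51933.8 to 75067.2 FPKM), and the 3 erythroid markers tested were below 0 (−0.09, sums 134 to 757 and 101 to 461 FPKM). With all pools, the summed levels of each list overlapped between the diets. Without squalene pool 1 the medians were −0.19 for T and NK cell, −0.18 for macrophage and −0.19 for endothelial markers. They were −0.28 for B and plasma cell, −0.39 for neutrophil, 0.22 for stellate cell, 0.37 for cholangiocyte, −0.04 for hepatocyte and 0.03 for erythroid markers. The endothelial sums were then 141 to 161 FPKM with squalene, all below control, and the sums of the other lists still overlapped. No marker was listed at 0 in every pool, although *PAX5*, *MMP8*, *MPO*, *KLF1* and *SLC4A1* were among those too low to be tested. The part of any of these cell types in the values of the replication genes was not tested.

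The log2 differences of the markers with the smallest p and of the most abundant marker in each list show how far single markers departed from these medians. They were −0.35 for *CD4*, −0.19 for *KLRB1*, −0.14 for *GZMA* and −0.12 for *NKG7* among T and NK cell markers. The *GZMA* value is that of its more abundant row, and its other row, at 0.16 to 0.78 FPKM, differed by −0.22. For B and plasma cells *TNFRSF17*, *POU2AF1*, *CD79A* and *JCHAIN* differed by 1.04, 0.45, 0.44 and −0.16. *TNFRSF17* was very low, at 0.0 to 0.23 FPKM without squalene, and differed by 0.70 when squalene pool 1 was left out. In macrophages *CLEC4F*, a lectin of Kupffer cells in rodents, differed by −1.24 ± 0.39 (SE), and *MARCO*, *CD163* and *CD14* by 0.41, −0.22 and −0.05. Endothelial *CDH5*, *CLEC4G* and *VWF* differed by −0.30, −0.24 and −0.34, and neutrophil *CXCR2*, *S100A8*, *CSF3R* and *S100A12* by −0.31, −0.71, −0.19 and 0.13. Without squalene pool 1 these neutrophil markers differed by −0.39, −1.25, −0.27 and −0.32. The stellate cell markers *RGS5*, *COL3A1* and *LRAT* differed by 1.12, 0.30 and −0.29, and the cholangiocyte markers *SPP1*, *KRT7* and *SOX9* by −0.33, 0.68 and 0.46. *SOX9* was also very low, at 0.03 to 0.31 FPKM over the pools. In hepatocytes *SERPINA1*, *ASGR1* and *ALB* differed by −0.41, 0.17 and 0.35, and the erythroid *HBB*, *ALAS2* and *AHSP* by −0.22, −0.09 and −0.02.

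All 20 interferon-stimulated genes had a fitted difference above 0, with a median of 0.47 that was 0.05 without squalene pool 1 (11 above 0), whereas the median of the 40 replication genes was 0.29 and 0.25. *USP18*, *HERC6*, *OAS2* and *CXCL10* differed by 0.57, 0.22, 0.40 and 0.67, and without squalene pool 1 by 0.27, 0.22, 0.18 and 0.06.

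**Figure D4:**
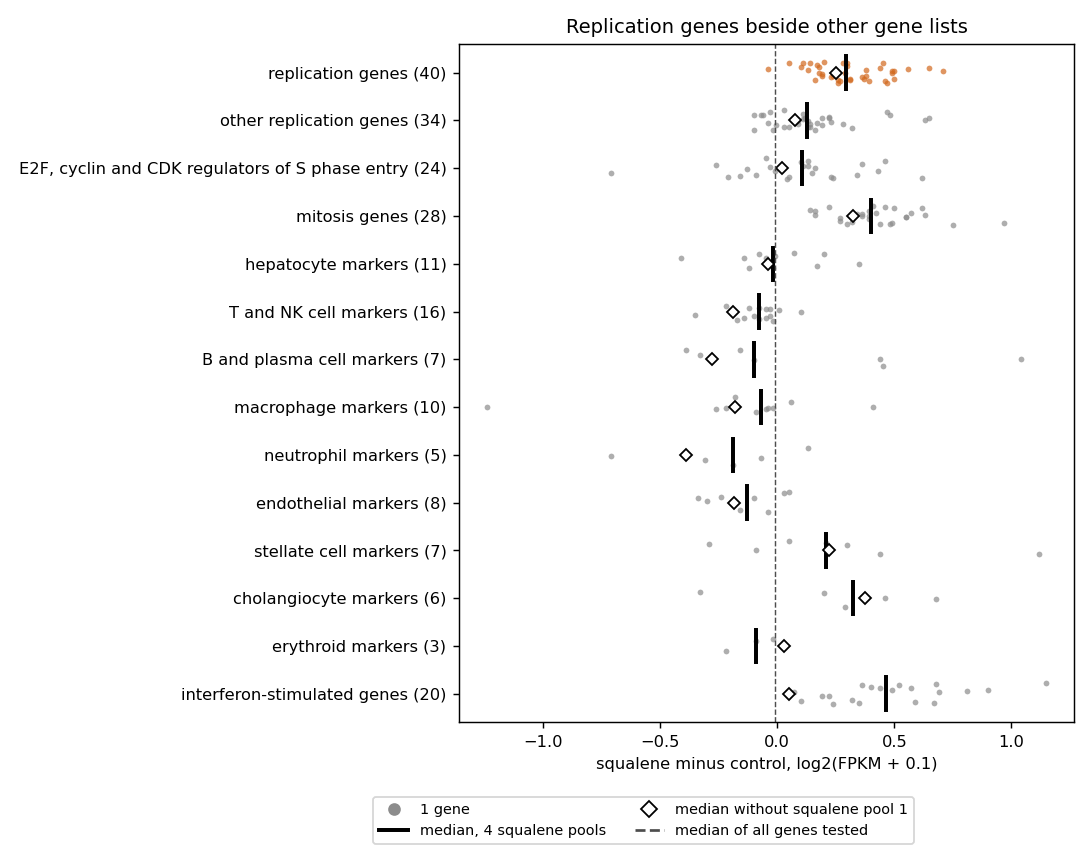
Difference between squalene and control on the log2(FPKM + 0.1) scale for each gene (dots) of the replication genes and of 13 other lists, with the number tested in brackets, the median as a bar, the median without squalene pool 1 as a diamond and the median of all genes tested as a dashed line. The replication and mitosis genes have medians of 0.29 and 0.40, and the interferon-stimulated genes move from 0.47 to 0.05 without squalene pool 1.

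None of the 40 genes was among the 48 genes in the deposited tables of splicing events for this comparison.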

How the data were processed

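Liver RNA was sequenced in 8 pools of 3 pigs. The authors selected poly(A) RNA, sequenced it on the DNBSEQ platform and aligned the reads that passed their filters to Sscrofa11.1 by HISAT2 (version not stated). They deposited FPKM per gene and pool. The program that made FPKM from alignments is not stated. A second table by the authors gave estimated counts summed within each diet, which served only as a measure of depth (on average 19.2 and 19.0 per pool, in units of 1e6). The fold changes, p-values and q-values in the authors' tables, the SNP tables and the values in the splicing tables were not used. FPKM are not counts, so no count model was fitted.

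Genes averaging at least 0.1 FPKM (14780) were compared as log2(FPKM + 0.1) with limma 3.58.1 in R 4.3.3 (eBayes with a trend, no block, two-sided), and p-values were adjusted by Benjamini and Hochberg over all of them at a threshold of 0.05. All 40 replication genes passed the filter. The pool is the replicate, so p-values measure the spread between pools and not between pigs. The test was checked on simulated data, in which every planted change was larger than any difference of the 40 genes. The members and gene lists were chosen with earlier results of these data known, and no test was made over a list. Pool values are given for members whose unadjusted p was under 0.05, whose diets did not overlap, or that had the highest or lowest mean FPKM of their role. From each other list the 3 genes of smallest p were named and, for cell types, also the most abundant. Of the list symbols 3 were not found, and *TF* and *GZMA* stood on 2 rows each, both used. Identifiers matched the RefSeq annotation of Sscrofa11.1 in 20331 of 20430 rows, and promoters were read with pysam 0.24.0. Exonic bases shared with a gene on the other strand were over 10% in *GINS2* (64.0%), *RFC5* (27.6%) and *CCNE2* (26.8%). Alternatives were pseudocounts of 1 and 0.01, no filter and one at 1 FPKM, 3 scalings (TPM, median of ratios, quantiles), 2 variance models, a block for the pool number, and each pool left out in turn. Figures were drawn with matplotlib 3.10.9 under Python 3.11.15.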

Additional observations from a re-analysis of the deposited data

Results flagged for a closer look

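Within a diet, 2 values of the 40 genes lay far from the other 3 pools by Dixon's test at its 95% critical value, out of 80 groups looked at, where chance flags about 1 group in 20. *MCM5*, a helicase subunit, had 3.77 FPKM in control pool 3 and 2.58 to 2.61 in the other control pools, so that this control pool lay within the squalene range of 3.32 to 3.81. *RPA3*, a subunit of replication protein A, had 27.4 FPKM in control pool 3 and 31.52 to 32.33 in the other control pools.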

How the results depend on the processing

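Over 18 alternatives, 0 of the 40 genes passed the adjusted test (smallest adjusted p of any of them 0.449), and their median log2 difference stayed between 0.21 and 0.34. The count with a fitted difference above 0 was 32 to 40, where the filter at 1 FPKM left fewer genes to count. The count at an unadjusted p under 0.05 was 9 to 12 over the other settings and 6 to 18 with 1 pool left out. It was lowest without control pool 4 (1.31% of all genes higher) and highest without control pool 3 (1.85%). The count of genes whose diets did not overlap was 6 to 10 and 8 to 15, the highest without squalene pool 4 (2.63% of all genes above). The low counts of 9 and 6 came with the filter at 1 FPKM, where 33 of the 40 genes were tested. For settings with all pools, the shares of all genes are not given here. Over all genes, 1 gene passed the adjusted test without a trend in the variance, and 0 to 1 with 1 pool left out (1 without control pool 2), and the cause was not tested. Neither was one of the 40. Among the 22 genes given pool by pool, 391 of 392 values over the alternatives kept their direction, and *CDC45* turned to −0.0029 without squalene pool 2 (highest with 1 pool left out 0.24). Of the other 18, *PRIM2* was at −0.03 without squalene pool 1, *CCNE2* at −0.03 without control pool 4, and *CCNE1* at 0.05, 0.08 and 0.02 without control pool 2, squalene pool 2 and squalene pool 3. With a replicate block for the pool number, 12 genes had an unadjusted p under 0.05, 39 a difference above 0, and the median was 0.29. The deviations of same-numbered pools correlated by −0.069 to 0.091 across genes (other pairs −0.081 to 0.101), and 3 of 8 pools correlated best with their own number. Such correlations cannot show whether same-numbered pools shared more than a number, which was not tested. Depth limits the genes of low level most, with 63 and 104 added counts behind *CDC6*.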
